A study of Mus musculus with 4 samples.

Results

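Deep clusters in later introns are read clusters of an IGF2BP3 immunoprecipitation (IP) that lie inside annotated introns, away from the exons of basic transcripts. A cluster was taken as such when its centre lay in no exon of a GENCODE M21 basic transcript on its strand, more than 100 bases from every exon edge, and in intron 2 or later of the transcript chosen for a protein-coding gene, the one with the longest coding sequence. Of 337234 clusters in replicate 1, 129381 (38.4%) met this rule, and of 216354 in replicate 2, 66302 (30.6%) did, 195683 of 553588 in all. All 4 libraries came from wild type C57BL/6 mice that were 8 weeks old, from suspensions of 2 testes that held germ cells and somatic cells and were crosslinked 3 times with UV light of 254 nm at 400 mJ/cm2. Each of the 2 replicates paired an IP library, made with an antibody to IGF2BP3, with a size-matched input library (SMInput), for which 2% of the lysate was kept without antibody. In such whole tissue, fewer cells of a type and less RNA per cell cannot be told apart. The values for each cluster are those of the authors, a log2(fold change) of IP over SMInput and a −log10(P value). The series description names anti-IgG and 3 biological replicates per sample, whereas the sample labels show input and 2 replicates. The labels were followed.

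IGF2BP3 is an RNA-binding protein of the IMP family, with RNA recognition motifs and K-homology domains. It is known mainly as a cytoplasmic protein that binds mature mRNA, often in the 3′UTR, and it has been described as a reader of m6A, the methyl mark on adenosines of mRNA. Introns are removed from precursor RNA in the nucleus, so reads deep inside an intron can come from RNA that was not fully spliced, from excised introns, or from transcripts that the annotation does not hold there, and reads of another copy of the sequence can be placed there too.

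Few deep clusters of later introns were significant, meaning that both values were 2 or more. In replicate 1, 2411 of 129381 passed, or 1.86% (95% Wilson interval 1.79% to 1.94%), beside 4.92% of all clusters. In replicate 2, 7248 of 66302 passed, or 10.9% (10.7% to 11.2%), beside 13.2% of all clusters. Clusters of 3′UTRs passed in 19.4% and 34.5%, and those of coding sequence in 5.28% and 7.97%. Deep clusters of first introns, at 2.02% and 10.2%, and clusters within 100 bases of an exon, at 2.16% and 10.2%, were close to the later introns. Intervals on these shares cover counting error of clusters only, and no test between samples was made.

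The replicates differed in the reads that a cluster needed to pass. Read numbers were recovered as whole numbers for 88.3% of clusters in replicate 1 and 91.6% in replicate 2, with library totals of 5133438 IP and 8706391 SMInput reads in replicate 1 and of 4637612 and 16696122 in replicate 2. Against 1 SMInput read, the lowest number listed, a cluster needed 7 IP reads to pass in replicate 1 but 4 in replicate 2. Clusters without recovered reads, most of them listed at a −log10(P value) of 0 and so unable to pass, are not in the shares below, which raises these. In deep later introns 121947 of 129381 and 64140 of 66302 clusters had recovered reads, in 3′UTRs 34798 of 36867 and 29561 of 30278, but in coding sequence only 67049 of 89244 and 60901 of 73033, which is therefore not compared. Over all clusters 297883 of 337234 and 198146 of 216354 had them. Of the deep later-intron clusters with recovered reads, 7.77% reached 7 reads in replicate 1, and 51.4% reached 4 in replicate 2, whereas 57.8% and 87.6% of the 3′UTR clusters did. Among clusters with enough reads, 25.4% (24.6% to 26.3%) and 22.0% (21.5% to 22.4%) of those in deep later introns were significant. The limit was set on IP reads alone and dropped only clusters that could not pass. It therefore raised the shares by construction, and differences between regions were not tested. Over all clusters the shares were lower, at 21.4% (21.1% to 21.7%) and 20.7% (20.5% to 20.9%), though more of these lacked recovered reads, and for 3′UTRs they were higher, at 35.4% and 39.9%. With 10 to 19 IP reads, 30.5% of deep later-intron clusters passed in replicate 1 and 23.1% in replicate 2, beside 22.6% and 24.0% of all clusters and 38.3% and 45.8% of 3′UTR clusters. With 20 reads or more the intronic shares were 19.8% (14.6% to 26.2%, 182 clusters) and 21.1% (15.5% to 28.1%, 161 clusters), beside 29.4% and 33.5% over all clusters and 45.6% and 53.8% in 3′UTRs. The SMInput reads were not held equal in these classes.

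The significant intronic clusters were small. Their median was 8 IP reads in replicate 1 and 5 in replicate 2, beside 16 and 12 in significant 3′UTR clusters, and 72.5% and 96.2% held fewer than 10. SMInput stood at 1 read in 56.9% of them in replicate 1 and 54.0% in replicate 2. Their log2(fold change) had a median of 3.57 in replicate 1 (quartiles 2.76 and 3.65) and of 3.85 in replicate 2 (quartiles 3.17 and 3.85). These medians were values of single read pairs: 7 IP reads against 1 SMInput read, which gives 3.57, made up 781 clusters (32.4%) in replicate 1, and 4 against 1, which gives 3.85, made up 2809 (38.8%) in replicate 2. The median −log10(P value) was 2.28 and 2.16, and 41 and 93 clusters reached 5. Their median length was 67 and 57 bases, against 39 and 44 for all deep later-intron clusters. Deep first introns, at 66 and 57 against 39 and 44, and all clusters, at 59 and 57 against 42 and 47, showed the same. Of the significant clusters, 659 (27.3%) and 1985 (27.4%) adjoined another cluster of the same replicate without a gap, so that neighbours were not always separate sites.

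Significant clusters lay along whole genes. In both replicates the median intron number was 6, with quartiles of 3 and 11, and the same held for clusters that did not pass. Their introns were shorter, with a median of 7735 bases against 10159 in replicate 1 and of 8997 against 10220 in replicate 2. They also lay closer to an exon, at a median of 1449 bases against 1965 and of 1664 against 1998. Within the intron, counted from its 5′ end, the median relative position was 0.426 in replicate 1 and 0.450 in replicate 2, beside 0.451 and 0.438 for those that did not pass. The share of significant clusters fell with distance in both replicates. Up to 500 bases from an exon, 538 of 22442 (2.40%) and 1458 of 11217 were significant, from there to 1000 bases 2.18% and 11.5%, up to 5000 bases 1.81% and 10.4%, and beyond 5000 bases 1.45% and 10.1%. The intervals of the shares on either side of the 100-base limit overlapped. In the 50 bases just outside it, nearer to the exon, 61 of 3185 (1.92%) and 223 of 1682 (13.3%) later-intron clusters passed, and in the 50 bases just inside it 77 of 3146 (2.45%) and 222 of 1571 (14.1%).

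Positions were seldom shared between replicates. Only 66 sites, joined by an overlap of at least 1 base on the same strand, were significant in both, which is 2.75% of the 2401 sites of replicate 1 (2.17% to 3.48%) and 0.912% of the 7240 of replicate 2 (0.717% to 1.16%). In 3′UTRs, 2592 of 6487 and of 9875 sites were shared, and in deep first introns 26, or 2.87% and 1.06%. Any cluster of replicate 2, significant or not, overlapped 306 of the 2411 significant clusters of replicate 1 (12.7%), and the reverse held for 678 of 7248 (9.35%). Among significant clusters with at least 10 IP reads, 47 of 664 in replicate 1 (7.08%, 5.36% to 9.29%) and 33 of 279 in replicate 2 (11.8%, 8.55% to 16.1%) were in shared sites. The same shares were 51.4% and 43.0% in 3′UTRs, where more of these clusters held 20 reads or more. Host genes were shared more often than positions. A significant cluster was present in 1510 of them in replicate 1 and in 3255 in replicate 2, and 965 genes had one in both, 63.9% and 29.6% of each list. Of all genes with a deep later-intron cluster, 16.9% in replicate 1 and 44.6% in replicate 2 held a significant one.

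Some of these introns are exons in other annotations. The centre of 165 significant clusters in replicate 1 (6.84%) and of 385 in replicate 2 (5.31%) lay in an exon of a GENCODE transcript outside the basic set, beside 4.68% and 5.59% of the clusters that did not pass. Curated RefSeq exons held 20 (0.830%) and 54 (0.745%), beside 0.316% and 0.444%, and predicted RefSeq exons 77 (3.19%) and 213 (2.94%), beside 2.87% and 3.43%. By any of these annotations, 9.79% and 7.85% of the significant clusters were exonic elsewhere, beside 7.02% and 8.29% of the others. Among the 66 shared sites, 15 lay in an exon of any of these annotations, with 9 in a RefSeq exon, 7 of them curated. On the opposite strand, an exon was present at 17 significant clusters (0.705%) and 36 (0.497%), beside 0.697% and 0.652% of the others.

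Repeats, marked by lower-case letters in the GRCm38 sequence, held the centre of 29.5% of significant clusters in replicate 1 (27.7% to 31.3%) and of 32.2% in replicate 2 (31.2% to 33.3%). The clusters that did not pass were at 26.8% and 31.3%, significant clusters of deep first introns at 25.1% and 31.8%, and all clusters at 18.5% and 18.6%. The median GC content of windows of 100 bases was 45.0% for significant clusters and 44.0% for all deep later-intron clusters in each replicate.

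Motifs were counted as exact letters on the strand of the cluster, in the 100 bases around its centre. GAACA, named in the study, occurred in 9.37% of significant windows in replicate 1 and 7.95% in replicate 2, beside 9.02% and 8.00% of windows that did not pass and 9.38% and 8.96% of all clusters. AAACC, the other pentamer it names, occurred in 7.96% and 7.57%, beside 7.43% and 6.67% without a call and 7.68% and 7.24% of all clusters. Neither pentamer differed between significant and other deep clusters by more than 1 percentage point. The consensus of m6A sites (A, G or T, then A or G, then AC, then A, C or T) was present in 79.8% and 79.7% of significant windows, 82.2% and 79.5% of the others, and 82.7% and 81.6% of all clusters. CACACA, which stands for the CA-rich sequence described for IGF2BP proteins, was found in 5.14% and 4.84%, against 4.58% and 4.13% without a call and 3.85% and 3.47% of all clusters. TTTTTT, a U tract in RNA, was found in 11.2% and 12.2% of significant windows, against 11.6% and 15.8% of the others and 9.45% and 11.0% of all clusters. It was less frequent in significant windows in replicate 2, but in replicate 1 the interval (9.96% to 12.5%) held the share of the others. AATAAA, the polyadenylation signal, was found in 2.99% and 3.82%, against 4.37% and 3.59% and, over all clusters, 3.69% and 3.21%.

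Of 4095 different runs of 6 letters in the windows, TGTGTG had the largest gain in significant clusters by the smaller gain of the 2 replicates, and was chosen after these counts were seen. It occurred in 337 of 2411 windows in replicate 1, or 14.0% (12.7% to 15.4%), against 9.20% of the windows that did not pass, and in 1131 of 7248 in replicate 2, or 15.6% (14.8% to 16.5%), against 10.4%. GTGTGT, which overlaps it, followed at 12.0% and 13.7%, against 7.51% and 8.73%. Over all clusters TGTGTG was at 7.70% and 8.10%. Significant clusters of deep first introns held it in 13.1% and 15.9%, and those of 3′UTRs in 7.64% and 8.65%. The 10 runs with the largest loss by the same measure were rich in U, led by TTTTCT at 9.87% and 11.3%, against 11.8% and 14.0%. UG repeats are known binding sequence of other RNA-binding proteins, such as TDP-43 and CELF1, and proteins other than IGF2BP3 were not measured.

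The shared sites with the largest smaller log2(fold change) of the 2 replicates mostly rested on few reads. In intron 2 of Fgfr1, a receptor tyrosine kinase, the site at chr8:25533423-25533504 (mm10, plus strand) reached 5.15 in replicate 1 with 21 IP reads against 1 SMInput read, and 4.17 in replicate 2 with 15 against 3. Lcor, a corepressor of nuclear receptors, held a site in intron 2 at chr19:41526702-41526786 (plus strand) with 4.12 from 41 reads against 4, and 5.47 from 37 against 3. This Lcor site lay in a curated RefSeq exon of Morf4l1b, a gene inside the intron, and its window matched 9 places of the genome over at least 90 bases at 90% identity or more. Creb3l2, which encodes a transcription factor anchored in the endoplasmic reticulum, followed with 4.08 from 10 reads against 1 in replicate 1 and 5.02 from 9 against 1 in replicate 2, in intron 3 at chr6:37362976-37363059 (minus strand).

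In replicate 1, 4921539E11Rik, Pi4ka, Sel1l2 and Tnfrsf19 each stood at 3.76, from 8 IP reads against 1. In replicate 2 they stood at 4.66, 3.85, 4.43 and 5.94, in that order. Pi4ka encodes a phosphatidylinositol kinase. The Tnfrsf19 site, in intron 2 at chr14:61024448-61024538 (minus strand), had 17 IP reads against 1 in replicate 2, and its window matched 19 places of the genome. 1700006A11Rik had 3.64 from 22 reads against 3 and 3.66 from 21 against 6, the closest pair of values among these sites. Ccdc192 closed the list, at 3.57 from 7 reads against 1 and 3.85 from 4 against 1, a smaller value that Hacd2, Myo1e, Slc25a30 and Smarca2 shared, and the tie was broken by symbol.

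Windows of sites with and without a UG repeat follow, because runs of UG were what significant intron clusters held more often. They are 100 bases of GRCm38 around the centre of the best cluster of replicate 1, on the strand of the cluster, and capitals mark TGTGTG and the overlapping GTGTGT. Where they occur, the motif CACACA and the pentamers of the study, GAACA or AAACC, are in capitals too.
Creb3l2, intron 3, chr6:37362959-37363058, minus strand: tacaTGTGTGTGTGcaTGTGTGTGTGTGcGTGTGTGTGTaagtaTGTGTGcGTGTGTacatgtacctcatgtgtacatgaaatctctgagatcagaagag
Sel1l2, intron 12, chr2:140249763-140249862, minus strand: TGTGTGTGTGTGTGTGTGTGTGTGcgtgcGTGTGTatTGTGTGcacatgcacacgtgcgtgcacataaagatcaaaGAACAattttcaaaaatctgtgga
Smarca2, intron 5, chr19:26643031-26643130, plus strand: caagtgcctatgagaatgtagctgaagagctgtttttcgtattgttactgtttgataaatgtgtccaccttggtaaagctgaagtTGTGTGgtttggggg
Fgfr1, intron 2, chr8:25533407-25533506, plus strand: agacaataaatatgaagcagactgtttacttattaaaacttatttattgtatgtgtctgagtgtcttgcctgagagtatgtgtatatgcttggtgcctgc
Dnah2, intron 15, chr11:69498290-69498389, minus strand: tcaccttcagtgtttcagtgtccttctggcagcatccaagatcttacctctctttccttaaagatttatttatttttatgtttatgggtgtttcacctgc
The Creb3l2 and Sel1l2 windows held UG runs over 44 and 36 of their 100 bases, and the Fgfr1 and Dnah2 windows held none of the 5 motifs. In all, 15 of the 66 shared sites had TGTGTG in the window.

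The largest read numbers came from a place of another kind. The 5 shared sites with the most IP reads all lay within chr12:78350919-78351120 (plus strand), in intron 2 of Gphn, which encodes gephyrin, a scaffold of inhibitory synapses and an enzyme of molybdenum cofactor synthesis. The site with the most IP reads had 317 against 128 SMInput reads in replicate 1, a log2(fold change) of 2.07, and 227 against 123 in replicate 2, or 2.73. The site there with the largest smaller log2(fold change) had 238 against 28 in replicate 1, or 3.85, and 162 against 54 in replicate 2, or 3.43. In 4 of these 5 sites the window shared at least 40 bases with a transcript of Lars2, whose last exon is known to hold sequence of large-subunit ribosomal RNA, and each window matched 2 to 6 places of the genome. The window of the site with 238 and 162 reads is shown as an example of this place, with the same motifs in capitals.
Gphn, intron 2, chr12:78350919-78351018, plus strand: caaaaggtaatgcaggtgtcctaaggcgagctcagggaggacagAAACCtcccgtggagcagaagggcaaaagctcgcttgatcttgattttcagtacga
Reads of ribosomal RNA were removed by the authors before alignment, and which copy the remaining reads came from was not tested. The next sites, named after their values were seen, were in Rexo1, an RNA exonuclease gene, with 92 against 19 and 74 against 60 inside an exon of a non-basic transcript, and in the Lcor site above. In Galntl6, 3 shared sites lay in a curated RefSeq exon of Gm15881, a gene within its intron 2. Of the 66 shared sites, 42 lay outside every other exon annotation and matched no second place of the genome by this measure.

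Host genes with significant clusters had more intron sequence than other host genes. A median of 47.3 kb of later introns in the genes with a significant cluster in replicate 1 and 42.9 kb in replicate 2 compared with 23.0 kb and 21.3 kb in genes that held clusters but no significant one. The number of clusters per gene was not held equal. A gene with more clusters has more chances to hold a significant one, so the grouping itself favours such a difference. The genes with the most significant clusters are named by the smaller count of the 2 replicates, and their shares are read against 1.86% and 10.9% of all deep later-intron clusters. Ctnna3, an alpha-catenin of cell adhesion, had 15 of 766 clusters in replicate 1 (1.96%) and 37 of 491 in replicate 2 (7.54%), over 1496 kb of later introns. Immp2l, a subunit of a peptidase of the mitochondrial inner membrane, had 12 of 614 (1.95%) and 23 of 394 (5.84%). Mageb18, a MAGE family gene of the X chromosome, had 11 of 357 (3.08%) and 17 of 235 (7.23%), and thus 11 of the 35 and 17 of the 128 significant clusters on that chromosome. Of all deep later-intron clusters there, significant or not, Mageb18 held 357 of 2573 and 235 of 1194. Macrod2, which encodes a hydrolase of ADP-ribose marks, had 10 of 599 (1.67%) and 20 of 275 (7.27%).

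Spag16, a protein of the axonemal central apparatus, had 9 of 576 clusters in replicate 1 (1.56%) and 29 of 369 in replicate 2 (7.86%). Agbl4, a carboxypeptidase that trims glutamate chains of tubulin, had 7 of 573 (1.22%) and 20 of 363 (5.51%). Dnah8, a dynein heavy chain of the sperm flagellum, had 6 of 182 (3.30%) and 15 of 127 (11.8%). Mllt10, a partner of the methyltransferase DOT1L, had 8 of 198 (4.04%) and 13 of 138 (9.42%), over 143 kb of later introns. Eif4g3, a translation initiation factor needed in male meiosis, had 7 of 213 (3.29%) and 16 of 125 (12.8%) and was the only one of the genes named here for their number of significant clusters with a shared site. The share of Dnah8 and Eif4g3 was above that of all deep later-intron clusters in both replicates. Ctnna3, Immp2l, Mageb18 and Mllt10 were above it in replicate 1 and below it in replicate 2, and Macrod2, Spag16 and Agbl4 were below it in both. These genes were picked by their number of significant clusters, which enters the share, and no difference from the overall share was tested. Significant 3′UTR clusters were present in both replicates in Mllt10, with 5 and 3, in Eif4g3, with 2 and 3, and in Agbl4, with 1 each. Across host genes, 38.1% of those with a significant deep later-intron cluster in replicate 1 and 43.8% in replicate 2 also had a significant 3′UTR cluster, beside 24.1% and 35.4% of those without one. The numbers of clusters and of reads per gene were not held equal here, and the difference was not tested.

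In 7 genes chosen with the study in view, 9 of 225 clusters (2.12% to 7.43%) were significant in replicate 1 and 18 of 130, or 13.8% (8.94% to 20.8%), in replicate 2, beside 1.86% and 10.9% of all deep later-intron clusters. Dnah2 and Smarca2 had a shared site. Dnah2, a heavy chain of the axonemal dynein arms, held 2 significant clusters of 64 in replicate 1 and 7 of 41 in replicate 2. Its shared site in intron 15, at chr11:69498290-69498390 (minus strand), had 12 IP reads against 5 in replicate 1, a log2(fold change) of 2.03, but 17 against 1 in replicate 2, or 5.94, so that the replicates differed widely. Smarca2, an ATPase of the SWI/SNF chromatin remodelling complexes, held 3 of 80 and 4 of 34. The clusters of its shared site in intron 5, at 7 reads against 1 and 4 against 1, ran from position 26643035 to 26643127 in replicate 1 and from 26643126 to 26643185 in replicate 2, so that only their ends overlapped. Dot1l, the H3K79 methyltransferase, had 1 of 10 in each replicate at different places, in intron 5 and in intron 7. Cfap65, a flagellar protein, had 2 of 18 and 1 of 13, and Dnhd1, a dynein-related gene, 1 of 31 and 4 of 26, with no shared site in either. Chd5, a remodeller needed for the histone exchange of spermatids, had 1 of 6 in replicate 2 and none of 13 in replicate 1. Hdac11, a histone deacetylase, had none of 9 in replicate 1 and no cluster in replicate 2. In the 3′UTR, significant clusters in replicates 1 and 2 numbered 8 and 5 in Dot1l, 7 and 5 in Hdac11, and 7 and 3 in Smarca2. Chd5 had 2 there in replicate 2 only and Dnhd1 1 in replicate 1 only, whereas Cfap65 and Dnah2 had none.

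Host genes were also read by lists of what they do, beside the 1.86% and 10.9% of all deep later-intron clusters. Genes named here that held no shared site were picked after their values were seen. Axonemal dynein heavy chains had 20 of 871 significant in replicate 1, or 2.30% (1.49% to 3.52%), and 56 of 532 in replicate 2, or 10.5% (8.20% to 13.4%). Of the 16 genes, 8 and 11 held at least 1 significant cluster. The shares were 15.8% and 34.0% of all 9585 host genes, counted here with a deep later-intron cluster in either replicate. Dnah7b and Dnah8 had the most in replicate 2, with 14 and 15. Dnah2 was the 1 gene of this list with a shared site, beside 60 of all 9585 host genes. Their later introns were long, at a median of 203 kb beside 24.4 kb for all host genes.

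Splicing factors and hnRNPs, whose transcripts are known to retain introns, had 11 of 293, or 3.75% (2.11% to 6.60%), and 14 of 224, or 6.25% (3.76% to 10.2%). The interval of replicate 1 lay above the overall share and that of replicate 2 below it, and no gene of the list had a shared site. Ptbp2, a splicing repressor, and Clk4, a kinase of splicing factors, were the 2 genes called in both replicates. Meiotic chromosome genes had 8 of 392, or 2.04%, and 22 of 234, or 9.40%. Sycp2, of the synaptonemal complex axis, held 5 of 50 and 2 of 34, whereas Sycp1, of its transverse filaments, held none of 90 and 6 of 64.

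Chromatin regulators of spermatids had 12 of 549, or 2.19%, and 32 of 318, or 10.1%, with Smarca2 as the only gene with a shared site. Kdm3a, a histone H3K9 demethylase needed for the protamine genes, held 4 of 37 and 3 of 22, and Dnmt3a, a DNA methyltransferase, none of 12 and 6 of 10. Spermatid kinesins and intraflagellar transport genes had 12 of 435, or 2.76% (1.58% to 4.76%), and 32 of 227, or 14.1% (10.2% to 19.2%). Ift80, with 3 of 33 and 4 of 19, and Ift140, with 3 of 62 and 4 of 22, both encode subunits of the transport particles. The 3 significant clusters of Ift140 in replicate 1 adjoined each other without a gap, so they were not separate sites. All 5 lists held genes with significant clusters, as did 15.8% and 34.0% of all 9585 host genes. No list had more than 1 gene with a shared site, beside 60 of all 9585 host genes. Lists this short cannot be set apart by such counts.

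Markers of testis cell types had few deep clusters, and their counts are read beside 1.86% and 10.9% of all deep later-intron clusters. Spermatid and spermatocyte markers held 1 significant of 101 clusters in replicate 1 and 8 of 69 in replicate 2, 6 of them in Sycp1. Catsper1, a channel subunit of the sperm tail, had a shared site in intron 10 at chr19:5343094-5343179 (plus strand), with 13 IP reads against 5 and a log2(fold change) of 2.14 in replicate 1, and 7 against 5 and 2.33 in replicate 2. Sertoli cell markers held 2 of 102 and 8 of 71. Gata4, a transcription factor, had 1 of 25 and 1 of 19, at different places of its intron 2. Wt1 had none of 62 and 5 of 48, Fshr none of 5 and 2 of 2, and Cldn11 1 of 6 and none of 1. Leydig cell markers held none of 20 and none of 9, macrophage markers none of 23 and 2 of 7, and peritubular myoid markers none of 8 and 3 of 3. These numbers are too small to set cell types apart, and the part of each cell type in the clusters was not tested.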

How the data were processed

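The authors named cutadapt, Bowtie2, STAR and Clipper as their tools, with mm10 as genome. As deposited, each cluster has a −log10 of a P value, from 0 to 400, with which the authors set IP against SMInput reads, and a deposited log2 ratio of these reads, scaled to library size.

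Clusters were placed by their centre, and where several introns held it (1727 and 906 clusters), intron 2 or later was preferred, then the shortest. No cluster ran past a chromosome end. Read numbers were recovered by matching both deposited values, with Fisher's exact test where a read number or its expected value was below 5 and Yates' chi-square otherwise, for 88.3% and 91.6% of clusters. The rest were listed at 0 or 400, or had no solution or several, and were left out where reads were used. This step was tested on simulated data. An SMInput of 1 may stand for 0 reads.

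Sites were named by a rule: the 10 shared sites with the largest smaller log2(fold change), the 5 with the most reads, the 10 host genes with the most significant clusters (smaller count of the 2 replicates, then the sum, then the symbol), 7 genes chosen with the study in view, and genes of the lists with a shared site. Not every item the rule picked is described. The members and lists were chosen with earlier results of these data known. The lists were axonemal dynein heavy chains, splicing factors, meiotic chromosome genes, chromatin regulators, kinesins with intraflagellar transport, and markers of 5 cell types. Alternatives changed thresholds, exon sets, distance, read numbers, overlap, repeats and windows. TGTGTG and the alternatives on Lars2 and RefSeq were chosen after seeing the data. Leaving out each replicate was planned for the share of significant clusters but not for the median log2(fold change). Python 3.11.15, pandas 2.3.3, numpy 2.4.6, SciPy 1.17.1 and BLAST 2.17.0 were used.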

Additional observations from a re-analysis of the deposited data

How the results depend on the processing

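With both thresholds at 3, 369 and 643 clusters were significant and 13 sites were shared. With at least 10 recovered IP reads, 664 and 279 clusters were significant, the mean share of both replicates was 26.3% in place of 6.40%, and the mean of the median log2(fold change) was 2.67 in place of 3.71. These settings keep fewer clusters by construction. In windows of 200 bases, the mean shares rose to 17.3% for GAACA, 15.3% for AAACC, 95.9% for the m6A consensus, 9.41% for CACACA, 19.0% for TTTTTT and 8.15% for AATAAA, as longer windows hold more letters. In deep clusters that did not pass, these were 17.9% and 16.8% in the 2 replicates, 15.9% and 14.9%, 96.9% and 96.3%, 9.38% and 8.74%, and 19.5% and 23.9% in the same order, with AATAAA in 12739 of 126970 and 5355 of 59054 windows. The share of significant clusters ranged from 1.86% to 10.9% when each replicate was left out. By the same step, which was not planned for it, the median log2(fold change) ranged from 3.57 to 3.85. Of 40 alternative values, 27 moved by less than the spread between replicates or, for counts, by less than 1.5 times. Values with 1 replicate left out were bound to be among the 27. With 2 replicates, such a value always moves by less than that spread. That spread is wide for the share of significant clusters, which fell to 0.628% with both thresholds at 3. Other exon sets and stricter overlap gave 57 and 63 shared sites, and 45 lay beyond 500 bases. Chosen after seeing the data, leaving out exons of the other annotations gave 51 shared sites, and leaving out windows with Lars2 sequence gave 62. Each deposited value is already the paired one, of an IP with the SMInput of its own replicate. For the counts, shares and medians of a replicate no paired analysis was possible beyond that, because each is made within 1 such pair, and no test was made over the 2 log2 values of a shared site. Most deep later-intron clusters with recovered reads held fewer than 5 IP reads, and the difference in depth between the replicates cannot be told apart from other differences between them.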
